A study of Mus musculus with 36 samples.

Results

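The daily rhythm that mice on normal chow and on a high-fat diet had in common was described in a brain region enriched for the suprachiasmatic nucleus (SCN). All 36 libraries of the series were used, and a single 24 h cosine was fitted to each transcript across both diets, with the diet as a covariate that takes up any difference in mean level. Of 24883 rows in the expression tables, 15173 (61.0%) had a mean level of at least 1 and were tested, and 331 were called rhythmic. Levels are FPKM (fragments per kilobase of transcript, scaled for the number mapped) rescaled so that each library sums to 1000000. The gene nearest above the limit was Msx1, with a mean of 1.00234, and the nearest below was Tmem82, with a mean of 0.999676.

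The mice were adult C57BL/6J animals that had received normal chow or a high-fat diet for 10 weeks, and no other treatment or genetic change is given in the labels. Tissue from fresh brains was frozen in liquid nitrogen, and polyadenylated RNA was sequenced with a stranded protocol. Libraries were made at 6 times of day, 4 h apart, with 3 libraries for each of the 12 combinations of diet and time and 18 libraries for each diet. Times are zeitgeber time (ZT), as the table headers give them, while the sample labels have the same numbers as time points. In ZT the lights come on at ZT 0, and in a cycle with equal light and dark they go off at ZT 12. The labels do not state the lighting, and hours from ZT 12 to 24 are called the dark phase here on that convention. Nothing in the labels ties a library to its own animal, so the p-values measure the spread between libraries, some of which may be technical.

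The SCN is the master circadian pacemaker of mammals and receives light from the retina. Inside its cells, and in most other cells, the activators CLOCK and BMAL1 (the product of Arntl) bind E-boxes in the promoters of the Period, Cryptochrome and Rev-erb genes, whose products then repress those activators or Arntl itself. Outputs of this loop, such as the transcription factor DBP, pass the rhythm on to other genes. Daily hormones, adrenal glucocorticoids among them, and daily changes in temperature and feeding add rhythms of their own, and in nocturnal rodents glucocorticoids peak around the onset of darkness.

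All SCN markers examined were present in 36 of 36 libraries, but at levels that varied between libraries. Vip, a neuropeptide of the ventral SCN, ran from 6.30 to 134.6 with a median of 24.2, and the SCN transcription factors Six6 and Lhx1 from 1.22 to 10.6 and from 1.30 to 6.25. Avp, which neighbouring neuroendocrine neurons also make, ran from 234 to 4301. Across genes the median Pearson r was 0.970 between libraries of a group and 0.969 between groups, and 0 pairs were identical. The deposited FPKM summed to 302899 to 432336 per library, and depth in reads is not known from such values. In 3 libraries liver transcripts stood out: normal chow at ZT 0, replicate 1 (Alb, serum albumin, 1890), normal chow at ZT 4, replicate 1 (335) and high-fat diet at ZT 0, replicate 3 (285). Another 2, normal chow at ZT 12, replicate 3, and high-fat diet at ZT 16, replicate 3, were rich in striatal transcripts. Calls of named genes that were lost without these 5 libraries are given beside the results. In such bulk tissue fewer cells of a type and less RNA per cell cannot be told apart.

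Across both diets 331 of 15173 transcripts (2.18%) followed a shared 24 h rhythm by limma's moderated F test at an adjusted p under 0.05, while 1986 (13.1%) had an unadjusted p under 0.05. Most of the called rhythms were shallow. The peak-to-trough fold, taken from the top and bottom of the fitted cosine on the log2(value + 1) scale, had a median of 1.29 and quartiles of 1.22 and 1.43, against a median of 1.10 over all transcripts tested. In 6 of the 331 the fold was at least 2 and in 57 at least 1.5. The 6 were Plin4 (3.41), Sgk1 (3.06), Fabp7 (2.84), Hif3a (2.63), Kirrel2 (2.59) and Dbp (2.29). Named genes made up 316 of the called transcripts and predicted gene models 15. By RefSeq gene type, 311 of 13461 protein-coding genes (2.31%) and 10 of 605 long non-coding RNAs were called. In 135 of the 331 (40.8%) all 6 libraries nearest the fitted peak lay above all 6 taken 12 h away, as was so for 452 of all transcripts tested (2.98%). Both times came from the same fit as the calls, so this share is no separate support for them.

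The called rhythms did not spread evenly over the day. In windows of 2 h the count was highest at ZT 6 to 8, with 51 genes, and lowest at ZT 10 to 12, with 9. In windows of 4 h, ZT 4 to 8 held 91 of the 331 (27.5%), where 19.1% of the fitted peaks of all transcripts tested fell, and ZT 8 to 12 held 30 (9.06%, against 15.9%). The evening window of ZT 12 to 16 held 48 (14.5%, against 21.2%) and had the largest median fold of the 6 windows, 1.40, against 1.25 at ZT 4 to 8. In windows of 6 h, 84 called genes peaked in the first after ZT 0 (0.554% of the transcripts tested), 81 in the next (0.534%), 67 from ZT 12 on (0.442%) and 99 from ZT 18 on (0.652%). The last window held 29.9% of the called genes and 20.3% of all fitted peaks. Altogether 166 of 331 (50.2%, 95% Clopper-Pearson interval 44.6 to 55.7, which covers counting error only) peaked in the dark phase, against 48.6% of all transcripts tested. The interval takes genes as independent, which they are not. With other scalings of the libraries the share lay outside it, at 59.7% (median-of-ratios) and 42.3% (values as deposited). The median standard error of a called gene's peak time was 0.787 h.

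**Figure D1:**
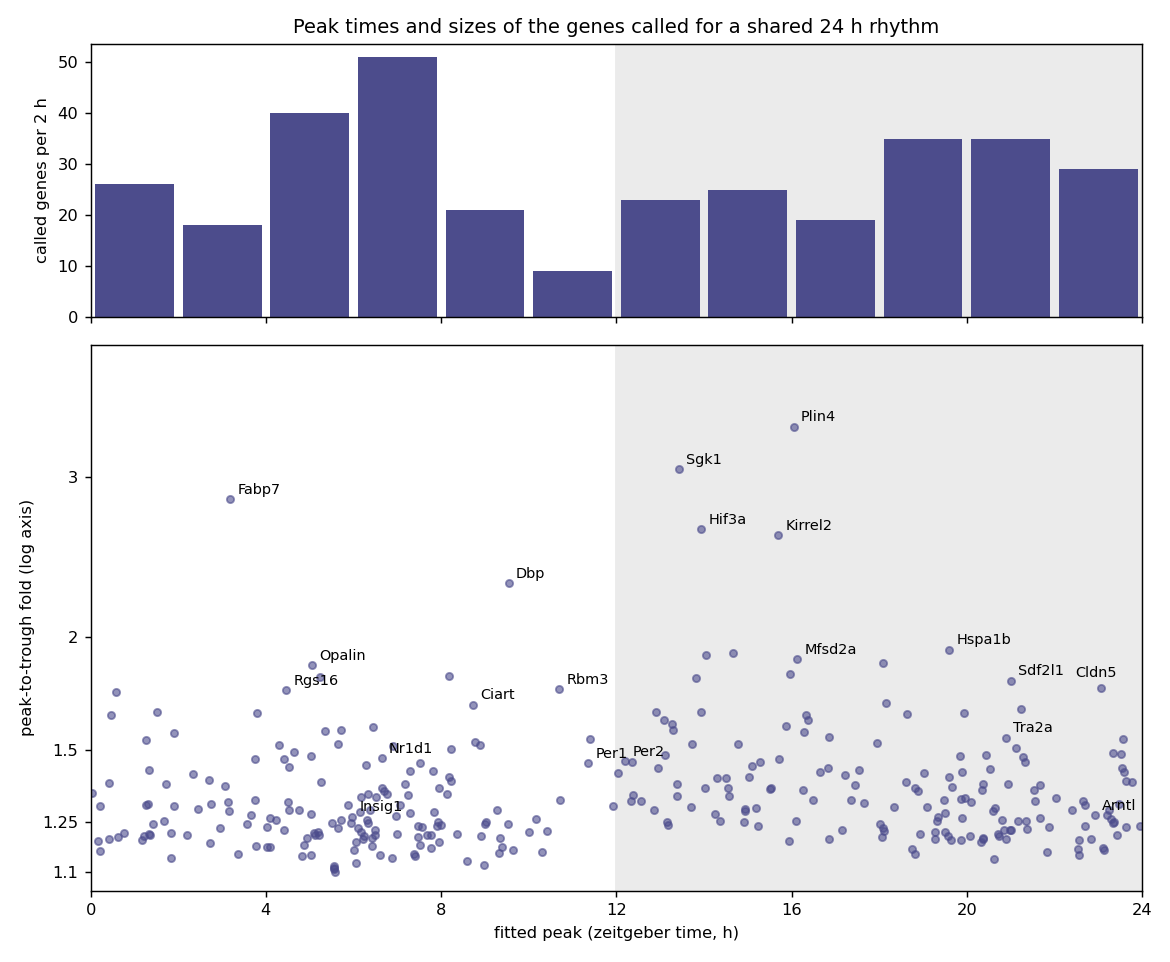
Top, number of called genes (adjusted p under 0.05) by fitted peak in windows of 2 h. Bottom, peak-to-trough fold on a log axis against fitted peak, 1 point per called gene, with the dark phase shaded. The count is highest at ZT 6 to 8 (51 genes), while 4 of the 5 largest folds, those of Plin4, Sgk1, Hif3a and Kirrel2, lie at ZT 13 to 16 and that of Fabp7 at ZT 3.18.

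Several genes of the core clock loop were called, with small swings. Of 11 clock repressors tested, 7 were called, and 11 had an unadjusted p under 0.05, with a median fold of 1.29. All transcripts tested had shares of 2.18% and 13.1%. Of the 5 repressors that earlier results of these data had not named, 1 was called. The fitted peaks of the called repressors ran from ZT 6.64 to ZT 12.9, and the order of those close together was not tested. The opposing activator Arntl peaked at ZT 22.9, and the other 3 activators tested, Clock, Npas2 and Arntl2, were not called. The 8 clock kinases and ubiquitin ligases, which act on clock proteins after translation, had a median fold of 1.07. By limma 0 of them were called and 1 had an unadjusted p under 0.05, against 2.18% and 13.1% of all transcripts. With so few genes, 0 calls is near that background.

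The Rev-erb gene Nr1d1, a nuclear receptor that represses Arntl (chromosome 11, 98767932 to 98775333, GRCm38), had the earliest fitted peak. Its 6 libraries at ZT 8 had a lowest level of 95.9, a median of 102.8 and a highest of 129.7. At ZT 20 they had 70.8, 74.7 and 79.7, so the groups did not overlap. The fitted fold was 1.47 peaking at ZT 6.64 ± 0.349 (SE, n = 36; adjusted p = 1.94e-08). Ciart, a repressor that binds the CLOCK and BMAL1 complex, followed with a 1.68-fold rhythm peaking at ZT 8.74 (adjusted p = 2.04e-05 in limma). Its 6 values ran from 15.95 to 24.03 at ZT 8 and from 10.53 to 13.39 at ZT 20. Bhlhe41, an E-box-binding repressor, had the smallest fold of the called repressors, 1.20, peaking at ZT 9.35 (adjusted p = 0.0258).

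The Period and Cryptochrome transcripts came last. Per1 peaked at ZT 11.4 with a fold of 1.45 (limma adjusted p = 0.0138), Nr1d2, the second Rev-erb gene, at ZT 11.9 with 1.30 (adjusted p = 0.0106) and Per2 at ZT 12.2 with 1.46 (adjusted p = 0.0169). Per2 was scattered at its peak, with 6 values from 10.4 to 20.5 at ZT 12 against 7.80 to 12.4 at ZT 0, so its groups overlapped. The value of 20.5 was in a striatum-rich library, normal chow at ZT 12, replicate 3. Cry1 was tighter, with 21.1 to 27.3 at ZT 12 and 17.4 to 19.9 at ZT 0, a 1.29-fold rhythm peaking at ZT 12.9 ± 0.587 (SE, n = 36; adjusted p = 4.22e-04). The repressors that were not called, Bhlhe40 (1.25-fold, adjusted p = 0.0790), Nfil3 (1.24-fold, adjusted p = 0.126), Per3 (1.26-fold, adjusted p = 0.273) and Cry2 (1.14-fold, adjusted p = 0.320), each had an unadjusted p under 0.05. Arntl had 19.0 to 23.6 at ZT 0 and 13.6 to 17.8 at ZT 12, and its fold was 1.27 (limma adjusted p = 0.0333).

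Several of these calls were lost with fewer libraries, while most folds changed little. Without the 3 liver-rich libraries 4 repressors stayed called, and Per1 (1.36-fold, adjusted p = 0.0803), Per2 (1.41-fold, adjusted p = 0.0724), Bhlhe41 (1.19-fold, adjusted p = 0.0571) and Arntl (1.28-fold, adjusted p = 0.0570) missed the limma threshold. The median fold of the 11 repressors was then 1.27. Without those and the 2 striatum-rich libraries Nr1d1, Ciart and Cry1 stayed called, and Nr1d2 (1.24-fold, adjusted p = 0.119) was lost too. The folds of Per1 and Per2 were then 1.30 and 1.32.

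Promoter sequences were read from RefSeq (GRCm38.p6) for the windows that start 250 bases before and end 50 bases after each transcription start, 300 bases in all, and 257 of the 331 called genes had one. The E-box CACGTG, which is its own reverse complement, stood in 4 of the 6 called repressors with a window, in 0 of 3 that were not called, and in 11.3% of the windows of all genes tested. The 4 stretches are shown because they hold the letters that CLOCK and BMAL1 are known to bind. Each reads along its gene's strand from the 5′ end, with the E-box in capitals. Bhlhe41 is from chr6:145865548-145865593 (minus strand), Ciart from chr3:95882247-95882364 (minus), Cry1 from chr10:85185089-85185134 (minus) and Per1 from chr11:69098763-69098808 (plus).
Bhlhe41: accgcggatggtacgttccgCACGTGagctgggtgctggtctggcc
Ciart: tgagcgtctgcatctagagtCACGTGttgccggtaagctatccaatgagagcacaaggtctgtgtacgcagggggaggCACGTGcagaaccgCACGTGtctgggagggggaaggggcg
Cry1: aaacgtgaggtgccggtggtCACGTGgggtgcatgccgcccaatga
Per1: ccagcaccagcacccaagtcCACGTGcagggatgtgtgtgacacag
Ciart, which had the largest fold of the repressors, held 3 copies in its window and the other 3 genes 1 each. A match is a description of the letters and not of binding in this tissue.

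Dbp, the clock output factor of the PAR bZIP family (chromosome 7, 45705088 to 45710203, GRCm38), was the deepest rhythm of the clock lists. At ZT 8 the 3 normal chow libraries had 91.2, 102.1 and 114.5, and the 3 high-fat libraries 100.1, 82.8 and 83.6. At ZT 20 the same groups had 47.1, 43.5 and 43.2, and 41.0, 40.4 and 48.6. Every value at ZT 8 was thus above every value at ZT 20 in both diets. In the falling phase 1 library, high-fat diet at ZT 16, replicate 3, stood at 87.2. It is 1 of the 2 striatum-rich libraries, and the other 5 at that time were between 50.6 and 56.7. The shared fit gave 2.29-fold peaking at ZT 9.54 ± 0.272 (SE, n = 36; adjusted p = 3.08e-11). Without the 2 striatum-rich libraries the fold was 2.26. The related factors Hlf (1.33-fold, adjusted p = 0.160) and Tef (1.17-fold, adjusted p = 0.186) were not called, nor were Rora and Rorb, nuclear receptors that activate Arntl. Of 15 other clock-controlled genes 5 were called (33.3%, against 2.18% of all transcripts). Rbm3, Cirbp and Tsc22d3 are among them and also stand in other lists described below. The others were the ubiquitin protease Usp2 (1.54-fold, ZT 11.4) and the mitochondrial protein gene Coq10b (1.22-fold, ZT 10.02). The call of Coq10b was lost without the liver-rich libraries (limma adjusted p = 0.104).

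**Figure D2:**
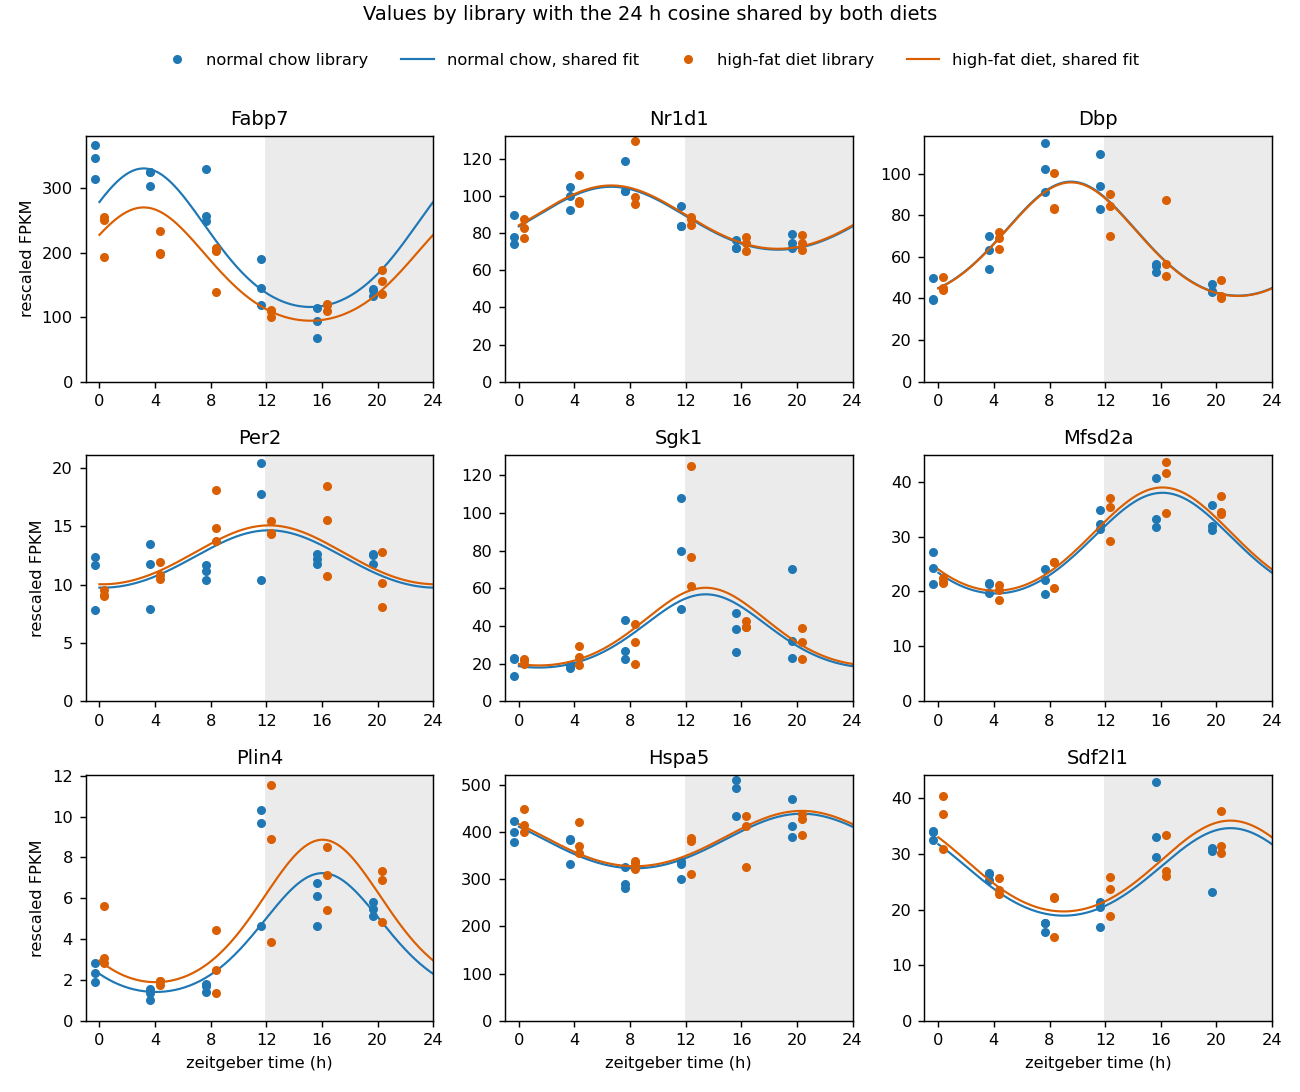
Rescaled FPKM in each of the 36 libraries (points, offset slightly by diet) against zeitgeber time for 9 called genes, with the shared cosine at each diet's level as a line and the dark phase shaded. The fitted peaks of Nr1d1 and Dbp lie before darkness and that of Per2, with wide scatter, near ZT 12. Those of Sgk1, Mfsd2a and Plin4 lie in the first hours of darkness. Those of Hspa5 and Sdf2l1 lie late in darkness and that of Fabp7 in the light phase.

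Of 27 SCN peptides and receptors 2 were called (7.41%, against 2.18% of all transcripts), Per2, which that list also holds, and Rgs16, a regulator of G protein signalling in SCN neurons. Rgs16 had a fold of 1.75 peaking at ZT 4.47 (adjusted p = 0.0485), with values from 32.2 to 76.2 at ZT 4 and from 22.9 to 34.4 at ZT 16. It was called in 10 of the 36 fits that left out a library, and without the 2 striatum-rich libraries it missed the threshold (1.71-fold, limma adjusted p = 0.108), as did Per2 (1.38-fold, adjusted p = 0.0568), which left 0 of the 27 called. Avp (1.35-fold), Vip (1.35-fold), Nms (1.47-fold) and Prok2 (1.41-fold) had larger fitted folds than most called genes but did not pass (limma adjusted p = 0.820, 0.795, 0.467 and 0.536), and their levels varied widely between libraries of a time point. The 27 immediate early genes, which light and neuronal activity induce, had a median fold of 1.12. By limma 0 were called and 3 had an unadjusted p under 0.05, against 2.18% and 13.1% of all transcripts. Both counts are near the background. Fos was listed at 1.25-fold (adjusted p = 0.649).

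Genes known to respond to glucocorticoids formed the group with the largest share of calls. Of 29 tested, 21 (72.4%) were rhythmic, against 2.18% of all transcripts, with a median fold of 1.45 over the 29, against 1.10 over all transcripts. Of the 21, 20 peaked in the dark phase and 17 of them at ZT 12 to 18, and the exception was Per1 at ZT 11.4. In 18 of the 29 the 6 libraries near the peak all lay above those 12 h away, as in 2.98% of all transcripts tested. Both times were taken from the same fit as the calls, so this is no separate support for them. The list was written with earlier results of these data known, so its count is no independent evidence, and 14 of the 22 members that those results had not named were called. The count was 18 to 22 under the other settings and 19 to 22 with a library left out. Levels of the hormone were not measured.

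Sgk1, a kinase that the receptor induces and that regulates ion channels (chromosome 10, 21882184 to 21999903, GRCm38), was highest at ZT 12. The 6 libraries had 48.9 to 125.1 at ZT 12, with a median of 78.1, and 13.3 to 22.9 at ZT 0, with a median of 22.1. By ZT 16 the level had returned to 26.2 to 47.0, so the fitted cosine (3.06-fold, peak ZT 13.4 ± 0.540, SE, n = 36; limma adjusted p = 1.29e-04) lies below the values at ZT 12. Tsc22d3, the anti-inflammatory leucine zipper gene also called Gilz (chromosome X, 140539528 to 140600659, GRCm38), had the same form, with 167.6 to 209.2 at ZT 12 against 90.8 to 104.2 at ZT 0. Its fold was 1.65 peaking at ZT 13.9 (adjusted p = 2.54e-06). Klf15, a transcription factor of amino acid and lipid metabolism, rose 1.40-fold peaking at ZT 14.3 (adjusted p = 4.81e-07).

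Other members of this group peaked close by. Klf9, a repressor that links glucocorticoids to the clock, peaked at ZT 12.9 (1.65-fold), Nfkbia, the inhibitor of NF-kappaB, at ZT 13.1 (1.48-fold) and Hif3a, a hypoxia-inducible factor subunit (chromosome 7, 17031507 to 17062427, GRCm38), at ZT 13.9 (2.63-fold). Hif3a was low throughout, with 2.83 to 6.08 at ZT 12 and 0.461 to 1.09 at ZT 0. Fkbp5, the co-chaperone that limits receptor sensitivity, peaked at ZT 15.2 (1.29-fold, limma adjusted p = 0.0114) and Gpt2, a mitochondrial alanine aminotransferase, at ZT 15.5 (1.36-fold). Glul, glutamine synthetase and an abundant astrocyte transcript with a mean of 1812, peaked at ZT 16.8 (1.43-fold, limma adjusted p = 0.00140). Cdkn1a, the cell cycle inhibitor p21, came later, at ZT 18.6 (1.64-fold). The metallothioneins Mt1 (1.13-fold, adjusted p = 0.757) and Mt2 (1.19-fold, adjusted p = 0.698), also known targets of the hormone, were not called. Zbtb16 (1.80-fold) lost its call without the liver-rich libraries (adjusted p = 0.0537).

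A glucocorticoid response element (ACA, 3 free bases, TGT, 1 free base, C, on either strand) was found in the promoter windows of 3 of 18 called members, of 1 of 8 that were not called and of 2.59% of all genes tested. The 3 are shown because they hold the letters that the receptor is known to bind. Capitals mark the motif, and in Map3k6 and Sgk1 it matches on both strands, so that each counts as 2 overlapping matches. Glul is from chr1:153899882-153899928, Map3k6 from chr4:133240617-133240669 and Sgk1 from chr10:21993682-21993734, all plus strand.
Glul: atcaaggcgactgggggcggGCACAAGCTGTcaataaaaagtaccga
Map3k6: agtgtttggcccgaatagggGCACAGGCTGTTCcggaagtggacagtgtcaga
Sgk1: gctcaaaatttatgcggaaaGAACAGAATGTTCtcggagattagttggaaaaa
Known elements of other members lie outside such short windows, so an absent match says nothing of the receptor.

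Lipid handling and transport at the blood-brain barrier supplied some of the most precise rhythms, beside those of Dbp and Nr1d1. Mfsd2a, which carries lysophospholipids with omega-3 fatty acids across brain endothelium (chromosome 4, 122946850 to 122961188, GRCm38), is also induced by glucocorticoids and stands in that list. At ZT 16 its normal chow libraries had 40.8, 33.2 and 31.8 and its high-fat libraries 43.6, 41.6 and 34.2. At ZT 4 they had 19.8, 21.6 and 21.4, and 21.2, 20.2 and 18.4. The lowest value at ZT 16 was thus above the highest at ZT 4 by a wide margin in both diets, and the fit gave 1.89-fold peaking at ZT 16.1 ± 0.268 (SE, n = 36; adjusted p = 3.08e-11). Of 20 solute carriers and receptors of the barrier 5 were called (25%, against 2.18% of all transcripts), with a median fold of 1.20. The other 4 were Tfrc, the transferrin receptor (1.39-fold, ZT 8.22), Slc7a5, a large neutral amino acid carrier (1.32-fold, ZT 10.7), Slc2a1, the glucose carrier GLUT1 (1.30-fold, ZT 13.7), and Slc16a1, a monocarboxylate carrier (1.23-fold, ZT 2.95). Their peaks were spread over the day. The junction protein gene Cldn5 also had a rhythm, 1.76-fold peaking at ZT 23.1 (adjusted p = 0.00220). The mean score of the 18 endothelial and mural markers, Cldn5 included, swung by 0.10 on the log2 scale peaking at ZT 7.65, and its part in these rhythms was not tested.

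Plin4, a coat protein of lipid droplets (chromosome 17, 56100591 to 56109803, GRCm38), had the largest fold of all called genes. Its 6 libraries had 4.64 to 8.49 at ZT 16, with a median of 6.43, against 1.02 to 1.93 at ZT 4, with a median of 1.66. They were highest, and most scattered, at ZT 12, with 3.87 to 11.5. The fit gave 3.41-fold peaking at ZT 16.0 ± 0.409 (SE, n = 36; adjusted p = 7.04e-07). Kirrel2, a cell adhesion protein gene (chromosome 7, 30447534 to 30457690, GRCm38), had nearly the same timing, 2.59-fold peaking at ZT 15.7, and 3.97 to 10.5 at ZT 16 against 0.953 to 2.01 at ZT 4. The value of 10.5 was in a striatum-rich library, and without the 2 such libraries the fold was 2.36.

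Fabp7, the brain fatty acid-binding protein of astrocytes and radial glia (chromosome 10, 57784881 to 57788450, GRCm38), ran opposite to these genes. At ZT 4 its normal chow libraries had 326, 325 and 304 and its high-fat libraries 234, 198 and 200.3. At ZT 16 they had 114, 68.0 and 94.4, and 119.8, 109 and 118. All 6 values at ZT 4 lay above all 6 at ZT 16, and the diets differed in level at ZT 4. The shared fit was 2.84-fold peaking at ZT 3.18 ± 0.348 (SE, n = 36; adjusted p = 1.94e-08), and without the liver-rich libraries it was 2.75-fold. The score of the 15 astrocyte markers, Fabp7 included, swung by 0.06 on the log2 scale. Of these markers the junction protein Gjb6 (1.32-fold, ZT 17.4) and the receptor Fgfr3 (1.46-fold, ZT 15.3) were also called, both with peaks in darkness.

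Of 38 genes of fatty acid oxidation and PPAR targets 6 were called (15.8%, against 2.18% of all transcripts), with a median fold of 1.12. Of the 35 that earlier results had not named, 3 were called. Fabp7, Plin4 and the lipoprotein lipase inhibitor Angptl4 (1.67-fold, ZT 21.2) had the larger folds. Plin4 and Angptl4 also count among the called glucocorticoid-responsive genes. The thioesterases Acot1 (1.34-fold, ZT 0.0243) and Acot2 (1.21-fold, ZT 1.21) and the droplet protein Plin2 (1.30-fold, ZT 0.206) peaked near lights on. Acot1 and Acot2 are near-identical copies, so reads of one may have been counted for the other. Liver markers moved with this hour: the mean score of 17 of them swung by 0.88 on the log2 scale peaking at ZT 23.6, the 3 liver-rich libraries being at ZT 0 and ZT 4. Without those libraries Acot1 stayed called (1.29-fold, limma adjusted p = 0.0171), while Acot2 (adjusted p = 0.111), Plin2 (adjusted p = 0.144) and the water and glycerol channel gene Aqp9 (adjusted p = 0.131) did not. Without those and the striatum-rich libraries 4 of the 6 stayed called.

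**Figure D3:**
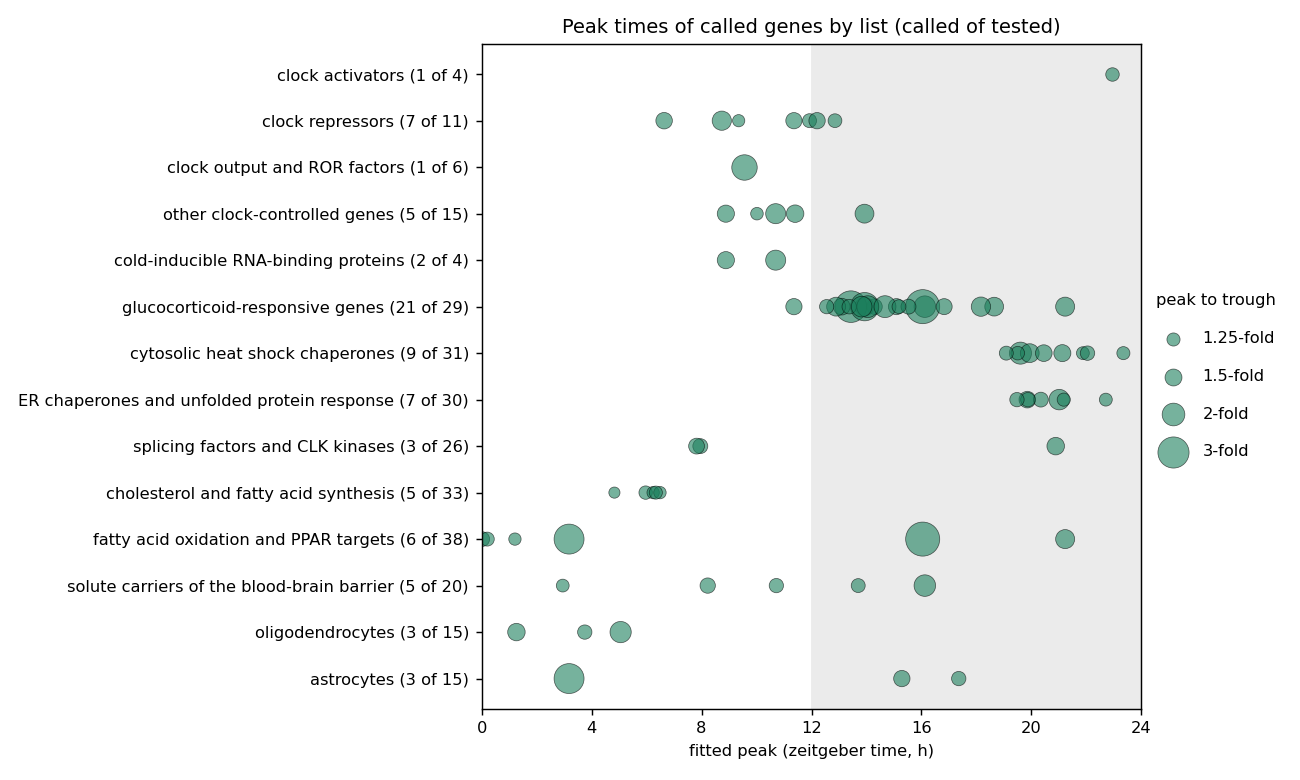
Fitted peak times of the called members of 14 gene lists, with the number called of the number tested beside each list, the area of each circle standing for the peak-to-trough fold and the dark phase shaded. Clock repressors lie at ZT 6.64 to 12.9, glucocorticoid-responsive genes mostly at ZT 12 to 18, both chaperone lists at ZT 19 to 24, and cholesterol synthesis genes at ZT 4.83 to 6.49.

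The chaperone genes that were called had fitted peaks late in darkness. Of 31 cytosolic heat shock chaperones 9 were called, with peaks from ZT 19.1 to ZT 23.3, and 18 had an unadjusted p under 0.05, 17 of them with a peak in darkness. The list's median fold was 1.16. Of 30 endoplasmic reticulum (ER) chaperones and genes of the unfolded protein response 7 were called, all between ZT 19.5 and ZT 22.7, with a median fold of 1.11 over the list. Both counts were far above the background of 2.18%, and they were 8 to 10 and 6 to 9 under the other settings. Both lists were written with earlier results of these data known, so these counts are no independent evidence. Of the members that earlier results had not named, 7 of 29 and 5 of 28 were called.

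Among cytosolic chaperones Hspa1b and Hspa1a, the inducible HSP70 genes, had 1.94-fold and 1.65-fold rhythms with peaks at ZT 19.6 and ZT 19.9. They are near-identical copies, and their separate levels are uncertain. Hspa1b had 6.83 to 8.92 at ZT 20 and 3.90 to 6.47 at ZT 8, without overlap. Its values reached higher on either side of ZT 20, with 6.91 to 16.2 at ZT 16 and 7.74 to 11.4 at ZT 0. Cryab, a small heat shock protein, had a 1.51-fold rhythm (ZT 21.1), Chordc1, an HSP90 co-chaperone, 1.48-fold (ZT 20.4), Hsph1, the HSP110 nucleotide exchange factor, 1.33-fold (ZT 22.04) and Ahsa1, an activator of HSP90, 1.23-fold (ZT 21.9). The constitutive and most abundant members did not pass, such as Hspa8 (1.16-fold, adjusted p = 0.298). A heat shock element (GAA, 2 free bases, TTC, 2 free bases, GAA, on either strand) was present in the windows of 2 of 8 called members, 3 of 17 that were not called and 0.588% of all genes tested.

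In the ER list the deepest rhythm was that of Sdf2l1, a partner of the chaperone BiP (chromosome 16, 17130138 to 17132383, GRCm38). It had 23.1 to 37.7 at ZT 20 and 15.1 to 22.2 at ZT 8, without overlap. Values reached higher at ZT 0 (30.9 to 40.4) and at ZT 16 (25.9 to 42.8) than at ZT 20. The fit gave 1.79-fold peaking at ZT 21.01 ± 0.473 (SE, n = 36; adjusted p = 1.30e-05). Hspa5, which encodes BiP (chromosome 2, 34771970 to 34777547, GRCm38), had 388.7 to 470.1 at ZT 20 and 281 to 337.6 at ZT 8, a 1.36-fold rhythm peaking at ZT 20.3 (adjusted p = 6.83e-04). Creld2 (1.48-fold, ZT 19.9) and the secreted survival factor Manf (1.33-fold, ZT 19.9) followed. The disulfide isomerases Pdia4 (1.32-fold, ZT 19.5) and Pdia6 (1.25-fold, ZT 21.2) and the lectin chaperone calreticulin, Calr (1.24-fold, ZT 22.7), completed the called set. The stress transcription factors Atf4 (1.03-fold) and Ddit3 (1.05-fold) were not called, and Xbp1 (1.20-fold, ZT 21.6) did not pass either.

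The complete ER stress element (CCAAT, 9 free bases, CCACG, on either strand) was found in 4 of the 6 called ER members with a promoter window and in 5 of the 19 that were not called. Of all 11219 genes tested with a window 20 had it (0.178%). It is the site known to be bound by ATF6 with NF-Y, and its 4 copies are shown because these genes peaked within 3 h of one another. Capitals mark the element, which in Calr and Creld2 reads on the opposite strand. Calr is from chr8:84847055-84847113 (minus strand), Creld2 from chr15:88819500-88819558, Hspa5 from chr2:34772005-34772063 and Pdia6 from chr12:17266471-17266529 (plus strand).
Calr: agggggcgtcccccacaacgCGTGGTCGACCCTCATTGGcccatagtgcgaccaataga
Creld2: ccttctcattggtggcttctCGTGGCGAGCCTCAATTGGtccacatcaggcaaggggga
Hspa5: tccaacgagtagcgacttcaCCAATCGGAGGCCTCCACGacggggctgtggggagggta
Pdia6: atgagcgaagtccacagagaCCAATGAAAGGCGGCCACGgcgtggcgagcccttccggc

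RNA-binding proteins that cooling induces peaked opposite to the heat shock genes. Rbm3 (chromosome X, 8138975 to 8145880, GRCm38) had 119.9 to 253 at ZT 12 and 72.9 to 117.3 at ZT 0. The diets differed in level: at ZT 12 it had 218 to 253 under normal chow and 119.9 to 156 under high-fat diet. The shared fit gave a 1.75-fold rhythm peaking at ZT 10.7 ± 0.408 (SE, n = 36; adjusted p = 7.04e-07). Fitted alone, chow gave 1.95-fold and high-fat diet 1.58-fold (limma adjusted p = 4.45e-04 and 0.150). Cirbp had a 1.52-fold rhythm peaking at ZT 8.88 (adjusted p = 1.78e-04). The values of Cirbp ran from 184.8 to 261.2 at ZT 8 and from 164.1 to 183.3 at ZT 20. The median fold of 26 splicing factors and CLK kinases, some of which respond to temperature, was 1.11. Of these 26, 3 were called (11.5%, against 2.18% of all transcripts). Among them Hnrnpdl (1.42-fold, ZT 7.82) peaked late in the light phase and the splicing activator Tra2a (1.55-fold, ZT 20.9) late in darkness. Tra2a had 103 to 131.8 at ZT 16, 104.6 to 127.7 at ZT 20 and 67.6 to 87.6 at ZT 8.

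A few cholesterol synthesis genes peaked in the middle of the light phase. Of 33 genes of cholesterol and fatty acid synthesis 5 were called (15.2%, against 2.18% of all transcripts), all peaking at ZT 4.83 to 6.49. The list's median fold was 1.10, the same as over all transcripts. Insig1, the sterol-sensing brake on synthesis (chromosome 5, 28071363 to 28078662, GRCm38), had a 1.27-fold rhythm peaking at ZT 5.97 (adjusted p = 0.00433), with values from 86.3 to 123.1 at ZT 4 and from 67.3 to 82.9 at ZT 16. Mvd (1.25-fold), Nsdhl (1.21-fold), Dhcr7 (1.21-fold) and Msmo1 (1.15-fold), all enzymes of the pathway, completed the set. Of the 12 members with an unadjusted p under 0.05, 1 peaked in darkness. Srebf2, the main transcription factor of the pathway, was not called (1.03-fold). Without the liver-rich and striatum-rich libraries 3 of the 5 stayed called, and Nsdhl (adjusted p = 0.0534) and Msmo1 (adjusted p = 0.0594) missed the threshold.

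A few oligodendrocyte markers also peaked in the light phase. Opalin, a myelin membrane protein, had 75.5 to 114 at ZT 4 against 38.7 to 57.8 at ZT 16, a 1.86-fold rhythm peaking at ZT 5.06 ± 0.559 (SE, n = 36; adjusted p = 1.92e-04). Cnp, a myelin enzyme, followed with 1.32-fold (ZT 3.75) and the gap junction gene Gjb1 with 1.54-fold (ZT 1.27). Thus 3 of 15 oligodendrocyte markers were called (20%, against 2.18% of all transcripts). Gjb1, which liver also expresses, lost its call without the liver-rich libraries (adjusted p = 0.171). The main myelin transcript Mbp (1.07-fold) was not called. The mean score of all 15 markers swung by 0.28 on the log2 scale peaking at ZT 3.22 and ran from 6.70 to 7.92 between libraries, and its part in these rhythms was not tested.

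Other lists had few or 0 calls by limma, where 2.18% of all transcripts were called. In lists this short 0 calls is near that background. Of 43 cytosolic ribosomal proteins and 41 nuclear-encoded respiratory chain subunits 0 were called. At an unadjusted p under 0.05 there were also 0, against 13.1% of all transcripts. The median folds of these 2 lists were 1.08 and 1.06. The proteasome had 1 of 32 (3.1%), Psma7 (1.13-fold, ZT 8.58), and glycolysis 2 of 22 (9.09%). Psma7 missed the limma threshold without the liver-rich and striatum-rich libraries (adjusted p = 0.0604). None of the 10 neuronal, 13 microglial, 15 meningeal, 17 liver or 20 other hypothalamic markers were called by limma, and at an unadjusted p under 0.05 there was 1, in the liver list. Median folds were 1.97 for the liver list and 1.34 for the meningeal list, the largest of these 5 lists.

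**Figure D4:**
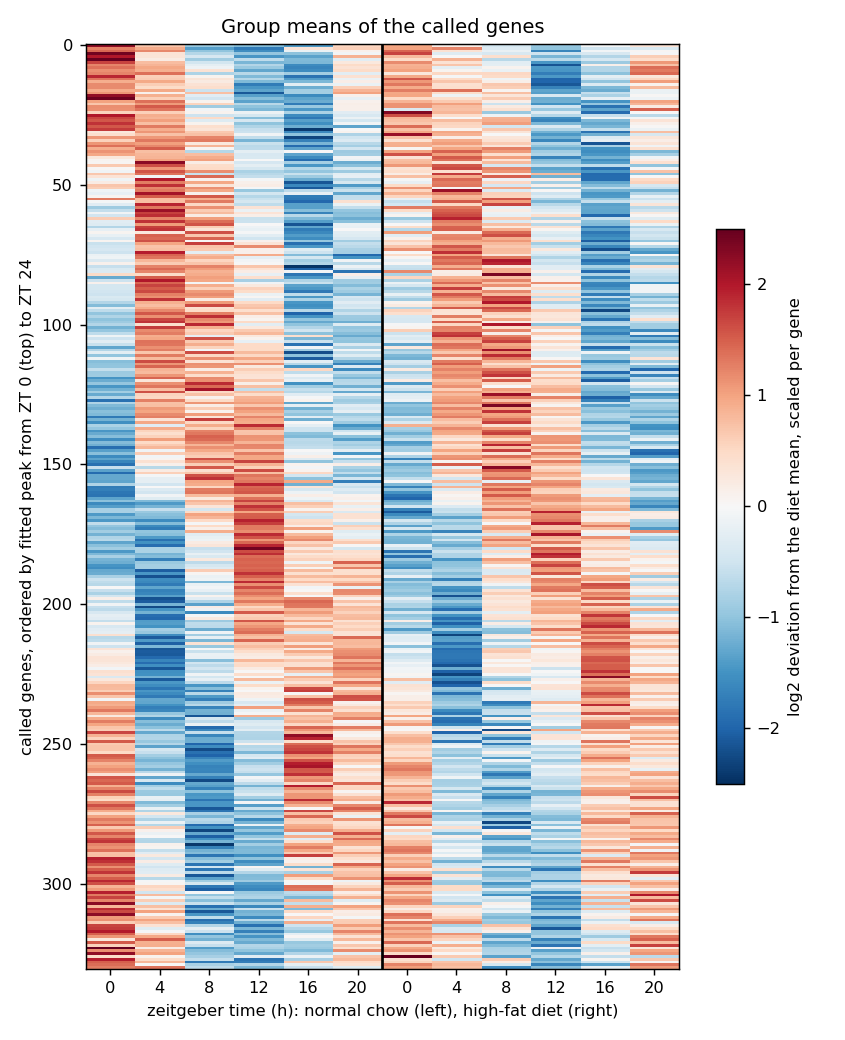
Mean log2 deviation from the diet's own mean at each time point, scaled per gene, for the 331 called genes in order of fitted peak (rows), with the 6 normal chow groups on the left and the 6 high-fat groups on the right. The band of high values moves from early to late times down the rows in both diets, a shift that the order of the rows builds in.

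The rhythms looked alike in the 2 diets, as far as genes picked on all 36 libraries can show. When each diet was fitted alone the 331 genes had a median fold of 1.31 in the chow libraries and 1.29 in the high-fat ones, against 1.14 and 1.15 over all transcripts tested. Their peaks were a median of 1.30 h apart, and in 307 of 331 (92.7%) they were within 3 h, against 23.7% of all transcripts tested. All 331 were within 6 h, but a shared cosine favours genes whose phases match, so these values describe the selection. The fold was higher under normal chow in 191 (57.7%), as it was in 47.9% of all transcripts tested. Without adjustment 302 of the 331 had a p under 0.05 in the chow libraries (18.5% of all transcripts tested), 250 in the high-fat libraries (8.89%) and 221 in both. With adjustment within a diet, 71 of the 331 were called under normal chow alone, where 141 of 15173 (0.929%) were called in all. Under high-fat diet alone 11 were called (0.0725% of all tested), and 257 of the 331 were called in neither diet alone.

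The difference in rhythm between the diets was also tested directly. By limma 0 of 15173 transcripts passed (smallest adjusted p = 0.357), and 2004 (13.2%) had an unadjusted p under 0.05, among them 23 of the 331 called genes (6.95%). The 5 called genes with the smallest unadjusted p were Fabp7, Chordc1, Plcd4, Angptl2 and Lman2l, all with a limma adjusted p = 0.357. Fabp7 swung 3.82-fold peaking at ZT 3.75 under normal chow and 2.20-fold peaking at ZT 2.20 under high-fat diet. Chordc1 swung 1.84-fold (ZT 19.8) and 1.23-fold (ZT 22.3). Angptl2, a secreted angiopoietin-like protein, swung 2.35-fold (ZT 10.2) and 1.85-fold (ZT 5.30), and its shared rhythm was not called without the striatum-rich libraries (adjusted p = 0.0580) but was without all 5 (adjusted p = 0.0184). That of Plcd4 was lost without the liver-rich libraries (adjusted p = 0.0507). Dbp had 2.53-fold at ZT 9.62 and 2.08-fold at ZT 9.45, Nr1d1 1.47-fold in both diets and Sgk1 3.14-fold at ZT 13.7 and 3.01-fold at ZT 13.1. A p above the threshold does not show that these rhythms were equal.

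**Figure D5:**
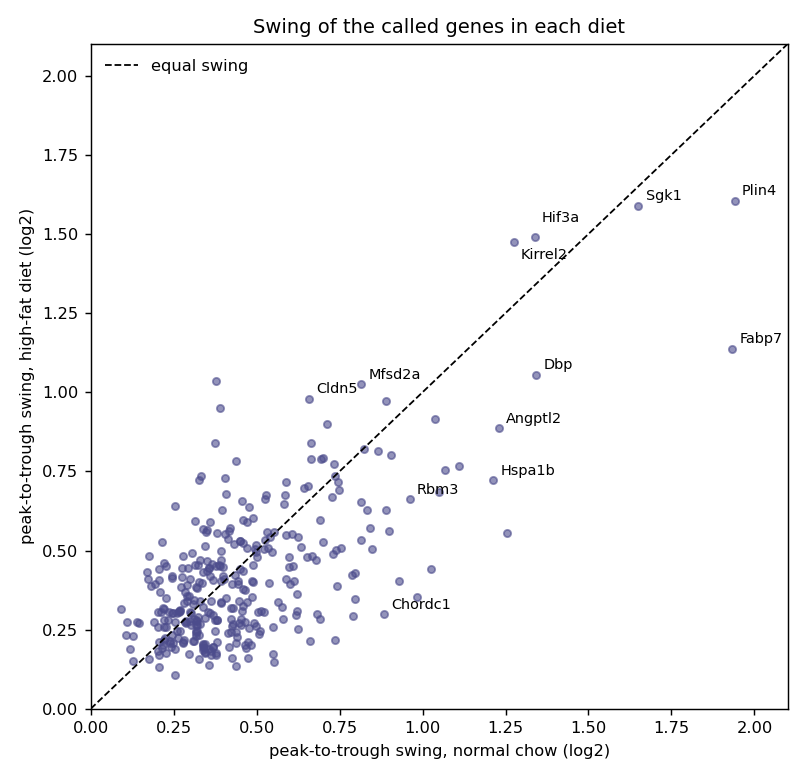
Peak-to-trough swing (log2) of the 331 called genes fitted in the 18 normal chow libraries (horizontal) and in the 18 high-fat libraries (vertical), with the line of equal swing. Of the points 191 lie below the line, Fabp7 and Chordc1 among them, and Kirrel2, Hif3a, Mfsd2a and Cldn5 above it.

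Patterns other than a cosine were also tested. With 6 time points 3 further terms can be fitted beside the 24 h cosine and sine, those of periods 12 h and 8 h. By limma 0 transcripts were called on these terms (smallest adjusted p = 0.0763), with 1360 (8.96%) at an unadjusted p under 0.05, of which 87 were among the 331 (26.3%). The smallest p was that of Tsc22d3, whose 6 values at ZT 12 (167.6 to 209.2) lay above those at ZT 8 (109.7 to 148.4) and ZT 16 (114.6 to 150.5). Sox21, Tbrg1, Atoh8 and Hspb8, the next 4, were not called for the 24 h rhythm (limma adjusted p = 0.467, 0.669, 0.680 and 0.721). When time was entered as a factor, 293 transcripts (1.93%) were called for any difference among time points, 216 of them shared with the cosine's 331.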

How the data were processed

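RNA from an SCN-enriched region was measured in 36 libraries. Reads were processed with Trimmomatic, TopHat and Cufflinks on mm10 and GRCm38, per the submitters' processing notes; versions and options are not given in the sources used here. The authors deposited one table per diet, taken here to hold FPKM from its values and the naming of Cufflinks, so a difference between the tables cannot be told apart from diet. Here each library was rescaled to 1000000, transformed as log2(value + 1), and rows with a mean of at least 1 were tested (280 symbols stand on several rows, 817 rows, kept apart). Fits used limma 3.58.1 in R 4.3.3 with a mean-variance trend: the moderated F test of cosine and sine (24 h) with diet as covariate, the diet interaction, the 3 remaining time terms, and each diet alone, with Benjamini-Hochberg adjustment over all rows at 0.05. The script was tested on simulated data. Depth in reads is unknown, so no detection limit was set.

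Named genes are all clock list members, the 15 largest folds, the 10 smallest p-values, 4 per 4 h window of peak time, up to 6 called members per list, and the 5 smallest p-values for a diet difference and beyond the cosine. Predicted models and symbols on several rows were passed over. Genes named outside this rule are members of the lists or of the marker check. Members and all 35 gene lists were chosen with earlier results of these data known. Coordinates are from GENCODE M21 (GRCm38) and gene types and promoters from RefSeq, with 11272 tested rows matched to a promoter. Alternatives covered the pseudocount, the filter, the scaling, the variance trend, a replicate term, tissue scores as covariates and left-out libraries. Some genes of the lists are counted but not reported here by name.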

Additional observations from a re-analysis of the deposited data

How the results depend on the processing

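The count of shared rhythms was 331. It was 141 with normal chow libraries only and 11 with high-fat libraries only, each a fit to 18 libraries. Why these counts differ was not tested. The count stayed within 1.5 times of 331 in the others, but the genes called were not all the same. It was 278 without the 2 striatum-rich libraries (250 in common with the 331) and 291 without those and the liver-rich ones (225 in common). Both settings were chosen after seeing the data. A filter at 5 gave 286 (276 in common), and leaving out the liver-rich libraries gave 331 (268 in common). With tissue scores it was 480 (312 in common), with median-of-ratios scaling 481 (276 in common) and with values as deposited 376 (231 in common). Leaving out 1 library gave 265 to 451, and 219 of the 331 were called in all 36 such fits. The share peaking in darkness was 59.7% with median-of-ratios scaling and 42.3% with values as deposited; leaving out a library gave 47.3% to 55.6%. The cause was not tested; against the sum to 1000000 these scalings shift a library by -0.29 to 0.18 and -0.31 to 0.20 (log2). Rhythm differences between diets numbered 0 in each setting. Patterns beyond the cosine numbered 0 in each setting except that 1 was called without the second high-fat replicate at ZT 8 and 1 without the second at ZT 20 (range 0 to 1). Of 102 named genes 0 reversed in any setting, and 15 lost their call in at least 1 fit without a library.

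The replicate number as a block gave 366 shared rhythms, 324 in common, and changed the call of 0 of 102 named genes. Libraries with the same number did not deviate together (median r 0.025 over 198 pairs of groups, 61 over 0.1, against -0.017 for different numbers), so they share a number and no pairing is known.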

Other observations

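Some called genes outside the lists are named here. They were chosen after their values were seen and are given as values. The minichromosome maintenance genes Mcm2 (1.32-fold, ZT 4.50, limma adjusted p = 0.00433) and Mcm6 (1.38-fold, ZT 5.25, adjusted p = 0.00364), parts of the replicative helicase, peaked in the light phase, as did the linker histones H1f0 (1.29-fold, ZT 4.52, adjusted p = 1.30e-05) and Hist1h1c (1.47-fold, ZT 4.41, adjusted p = 0.0122). The other helicase subunits Mcm3, Mcm4, Mcm5 and Mcm7 were not called, with folds of 1.10, 1.07, 1.09 and 1.04. Sox10, the transcription factor of the oligodendrocyte lineage, peaked at ZT 1.27 (1.31-fold, adjusted p = 0.0178), and Mmp14, a membrane-bound matrix protease, at ZT 0.454 (1.64-fold, adjusted p = 1.61e-05). Neat1, the long non-coding RNA that builds nuclear paraspeckles, peaked at ZT 0.577 (1.74-fold, adjusted p = 0.0428; called in 15 of the 36 fits without a library).

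In early darkness the interferon-induced genes Ifit3 (1.58-fold, ZT 13.3, adjusted p = 0.0212) and Ifit3b (1.53-fold, ZT 13.7, adjusted p = 0.00584) peaked, close copies whose reads can be split between them, while Ifit1 (1.12-fold) and Ifit2 (1.15-fold) were not called. Serpinh1, the collagen chaperone HSP47 of the ER, peaked at ZT 20.4 (1.38-fold, adjusted p = 0.0169), in the hours of the other chaperones. The paraspeckle and splicing proteins Sfpq (1.35-fold, ZT 18.9, adjusted p = 0.0275) and Hnrnpm (1.26-fold, ZT 20.8, adjusted p = 0.0240) also peaked in the dark phase.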
